A study of Mus musculus with 12 samples.

Results

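Gene expression in the hypothalamus of sedentary mice lacking Asmt (KO group) was compared with that of sedentary wild-type littermates (WT group) on single-color Agilent mouse arrays. The comparison takes the 6 arrays labelled KO or WT out of the 12 arrays of the series, 3 per group, numbered here KO 1 to KO 3 and WT 1 to WT 3. All mice were males on a C57BL/6 background with a labelled age of 6 to 7 weeks, and neither group was trained to swim. The study's methods give that age for the start of training in the swum mice, and the age at collection is not stated. KO mice were homozygous for a 20-bp deletion in Asmt that had been made with Cas9 mRNA and a guide RNA injected into zygotes, and the line had been backcrossed to wild-type littermates for 3 generations. The remaining 6 arrays, from swum mice of both genotypes, were used for the estimate of the spread and for reference levels. As a model, the comparison has the limit that C57BL/6J mice, the common substrain, are known to be deficient in Asmt activity from birth, so that both genotypes can have little of the enzyme. The labels do not say whether the mice of a group came from separate litters, and the p-values measure only the spread between these arrays. The guide is shown because it defines the KO group, with the lower-case g as the label gives it and the targeted bases in capitals.
Asmt guide: gCGCCTACACCAACTCCCCCC

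Asmt encodes acetylserotonin O-methyltransferase, the last enzyme of melatonin synthesis, which turns N-acetylserotonin made by Aanat into melatonin. Melatonin is released mainly by the pineal gland at night and acts on the receptors Mtnr1a and Mtnr1b, which are found in the suprachiasmatic nucleus of the hypothalamus and in the pars tuberalis, a thin layer of the pituitary on the underside of the hypothalamus. The pars tuberalis makes the glycoprotein hormone subunits Cga and Tshb, and it answers the length of the night.

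The arrays lay on 2 slides, and the KO group was divided between them. All 3 WT arrays, KO 1 and KO 2 were on slide 1, whereas KO 3 was on slide 2 with the arrays of the swum mice. Values are log2 normalized signals unless a fold is named. Between any 2 arrays of slide 1 the root-mean-square difference over the tested probes was 0.291 to 0.334, and between KO 3 and the others it was 0.465 to 0.543. Every comparison was therefore fitted with all 6 arrays and again with the 5 arrays of slide 1, in which the WT mean is the same and the KO mean is that of KO 1 and KO 2. Between 61.6% and 67.1% of spots were well above background on each of the 6 arrays.

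**Figure D1:**
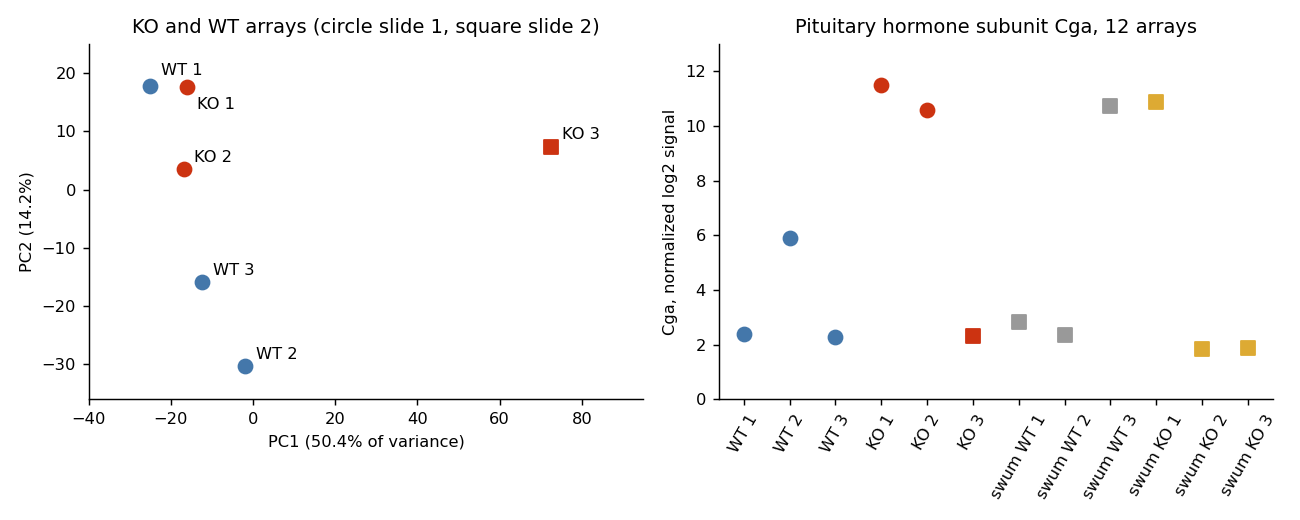
Placement of the arrays: the left panel plots principal components 1 and 2 of the 6 arrays, and the right panel plots the log2 signal of Cga on each of the 12 arrays (circles slide 1, squares slide 2). KO 3 lies at 72.6 on component 1 and the other 5 arrays between -25.1 and -1.94, while Cga is high in KO 1, KO 2 and in 1 array of each swum group.

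KO 1 and KO 2 also differed from the rest by signal of the pituitary. Cga, the alpha subunit of the glycoprotein hormones, was at 11.51, 10.58 and 2.31 in KO 1 to KO 3 and at 2.40, 5.90 and 2.29 in WT 1 to WT 3. Pitx1, a transcription factor of the pituitary, was at 8.87, 8.27 and 1.84 in KO and at 1.84, 3.94 and 1.82 in WT mice. Tshb, the beta subunit of thyrotropin, was at 7.75, 6.89 and 1.92 in KO and at 2.04, 3.04 and 1.91 in WT mice on the probe that varied. KO 1 and KO 2 thus stood far above KO 3 and all WT arrays for these genes. On slide 1, Pitx1 was at least 19.9-fold and this Tshb probe at least 8.36-fold higher in KO than in WT mice, where neither probe was well above background. The other Tshb probe was well above background on all 6 arrays and went the other way, at 4.79, 4.68 and 5.02 in KO and at 5.06, 5.07 and 5.03 in WT mice. The same genes were high in 1 of the 3 arrays of each swum group, where Cga reached 10.71 and 10.87. Over the list of 12 anterior pituitary markers, the summed linear signal was 3806, 2104 and 298 in KO 1 to KO 3 and 229 to 340 in WT mice, and 5, 5 and 2 of the genes were well above background in KO against 2 to 4 in WT mice. Growth hormone (Gh), prolactin (Prl) and Pou1f1, which mark some of the cells of the anterior lobe, were not well above background on any of the 6 arrays. Fshb, another hormone gene of the list, was at 7.12, 4.78 and 2.50 in KO and at 1.86, 4.92 and 1.86 in WT mice. It was well above background on 2 KO arrays and 1 WT array, and it was at 5.72 and 5.73 in the swum arrays with a high Cga signal. Only 2 of the 12 genes passed the detection filter, so no count over the list is given.

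The labelled tissue was present on all 6 arrays. Hypothalamic neuropeptide genes were among the brightest probes, with Hcrt (orexin) at 16.34 to 16.80, Oxt (oxytocin) at 16.65 to 17.27, Avp (vasopressin) at 14.80 to 15.28, Pmch (melanin-concentrating hormone) at 14.42 to 15.28 and Pomc (proopiomelanocortin) at 13.20 to 13.89. For these 5 genes the ranges of the 2 groups overlapped. Ttr, the transport protein that fills choroid plexus cells, was at 5.53, 9.63 and 7.81 in KO and at 7.15, 8.18 and 8.90 in WT mice and did not separate them. In whole tissue of this kind, fewer cells of a type and less RNA per cell cannot be told apart.

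Asmt itself has 1 probe, at 1.88, 1.88 and 1.93 in KO and at 1.86, 1.86 and 1.90 in WT mice. It was not well above background on any of these arrays, so the genotype cannot be read from it. Of the 14 genes of melatonin synthesis, breakdown and reception, 9 were tested, and none reached an unadjusted p under 0.05 in limma with 6 arrays or on slide 1 (0 of 9 each, where 4.47% and 5.08% of all 18266 genes did, with 1 probe a gene). Asmt, Tph1, Tph2, Mtnr1b and Cyp1a2 did not pass the detection filter. Aanat was at 8.20, 8.40 and 8.51 in KO and at 8.37, 7.87 and 8.40 in WT mice, which overlapped. Mtnr1a was at 6.33, 6.81 and 6.67 in KO and at 6.22, 6.39 and 6.13 in WT mice, and the KO range began above only 2 of the WT arrays. Its log2 fold change was 0.36 with 6 arrays (standard error 0.17, adjusted p = 0.849 in limma) and 0.32 on slide 1 (adjusted p = 0.968).

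With all 6 arrays, 79 of 35229 probes met the fold and p thresholds of the study's screening criterion, a change by a factor of 2 or more and a p of 0.05 or less before adjustment (0.224%), and on slide 1 89 probes met it (0.253%). Counted over genes, with the brightest probe of each, 31 met it with 6 arrays and 37 on slide 1 (0.17% and 0.203%). The p here is that of limma over the 12 arrays; under the methods' t-test, 24 probes met the thresholds with 6 arrays and 41 on slide 1. Of the 79, 54 were up-regulated and 25 down-regulated in KO mice (0.153% and 0.071%), and of the 89, 41 were up-regulated and 48 down-regulated (0.116% and 0.136%). The sets shared 39 probes, 20 up-regulated and 19 down-regulated, which is 49.4% of the former and 43.8% of the latter. After Benjamini-Hochberg adjustment in limma, 0 probes passed an adjusted p under 0.05 with 6 arrays (0%) and 3 on slide 1 (0.00852%), while 1931 probes had an unadjusted p under 0.05 in either fit (5.48%). The probes past the criterion were mostly dim. Of the 79, 73 had both group means below 6, and the median WT level was 3.75 against 8.43 over all tested probes. On all 6 arrays, 7 of the 79 and 21 of the 89 probes were well above background, and of these 6 and 19 were higher in KO mice. The 6 arrays did not overlap between groups for 47 of the 79 probes, and over all tested probes this was so for 8.58%. The criterion was applied to the same arrays and itself selects separated groups, so this count is no support for the calls.

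**Figure D2:**
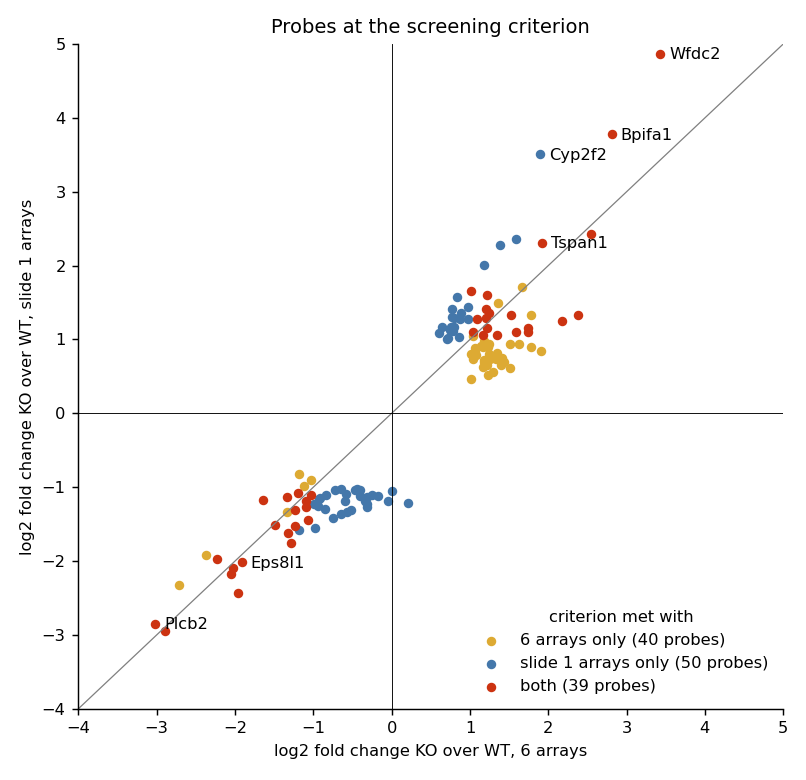
Log2 fold change of KO against WT for each probe that met the criterion in either fit, with all 6 arrays on the x axis and the arrays of slide 1 on the y axis. The grey line marks equal values, Wfdc2, Bpifa1 and Cyp2f2 lie above it, and most of the 34 up-regulated probes that met the criterion with 6 arrays alone lie below it.

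The largest rises among probes that were well above background in every mouse were of secreted and epithelial genes, and they were carried by KO 1 and KO 2. Bpifa1, which encodes a secreted airway protein that binds lipids and bacteria, was at 11.42, 10.20 and 7.90 in KO and at 6.88, 7.19 and 7.01 in WT mice. The groups did not overlap, and KO 3 was the lowest of the KO arrays. With 6 arrays the log2 fold change of Bpifa1 was 2.81, with a standard error of 0.68 (adjusted p = 0.849 in limma), and on slide 1 it was 3.78, with a standard error of 0.34 (adjusted p = 0.0252). The swum mice ranged from 7.72 to 8.49, above the WT and below KO 1 and KO 2. Bpifb1, a relative of Bpifa1 that is also secreted by airway and oral glands, was measured by a pair of probes. The upper probe in the list below was at 8.91, 9.08 and 7.08 in KO and at 7.48, 7.38 and 7.16 in WT mice, which gave a log2 difference of 1.02 ± 0.42 (standard error) with 6 arrays and of 1.66 ± 0.14 on slide 1 (adjusted p = 0.0252 in limma). Here KO 3 was below all WT arrays. The lower probe gave 8.66, 8.86 and 7.17 in KO and 7.60, 7.49 and 7.27 in WT mice, with log2 fold changes of 0.78 and 1.30 (adjusted p = 0.0270 on slide 1). These are the 3 probes that passed the adjusted p on slide 1, and none did when any 1 of the WT arrays was left out. They are printed because they alone passed the adjustment. All lie on chromosome 2 of mm9, plus strand, at chr2:153971869-153972981 for Bpifa1 and at chr2:154046019-154046078 and chr2:154046044-154046103 for Bpifb1, and the first 30 of 60 bases are given. The pair of Bpifb1 probes share a run of 35 bases and are not independent measurements of the gene.
Bpifa1 probe: ctggttcttggtgactgcacccactcccct
Bpifb1 upper probe: aggagtgtggaagcctactgtgtagactac
Bpifb1 lower probe: actacccccctgcagttaataaacacttgc

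Wfdc2, a small secreted protein of epithelia with a protease inhibitor domain, had the largest fold change of the bright probes. It was at 10.74, 9.80 and 5.95 in KO and at 5.02, 5.38 and 5.79 in WT mice, so KO 3 exceeded the highest WT array by little. The log2 difference came to 3.43 ± 1.34 (standard error) with 6 arrays and to 4.87 ± 1.15 on slide 1, with adjusted p-values of 0.849 and 0.689 in limma. With 6 arrays Wfdc2 missed the criterion without KO 1, KO 2, WT 1 or WT 2, at log2 fold changes of 2.48 to 3.43. The swum mice spanned 4.28 to 8.87.

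Further genes of this kind met the criterion on slide 1 only, and they were named after their values had been seen. Cyp2f2, a cytochrome P450 of the club cells that line airways, was at 9.74, 9.29 and 4.68 in KO and at 5.47, 6.13 and 6.42 in WT mice. Ces1d, a carboxylesterase that hydrolyses lipids, was at 8.28, 7.94 and 5.42 in KO and at 5.51, 6.11 and 5.86 in WT mice. Scgb3a1, a secretoglobin of airway epithelium, was at 8.0, 7.62 and 5.30 in KO and at 5.68, 6.63 and 5.07 in WT mice. In each of these KO 1 and KO 2 were above all WT arrays, whereas KO 3 lay within or below the WT range. On slide 1 the log2 fold changes were 3.51 for Cyp2f2, 2.28 for Ces1d and 2.01 for Scgb3a1, with adjusted p-values of 0.837, 0.867 and 0.645 in limma. Cbr2, a carbonyl reductase of lung, was at 9.25, 8.81 and 7.12 in KO and at 7.65, 7.25 and 7.96 in WT mice, a log2 fold change of 1.41 on slide 1. Krt8, a keratin of simple epithelia, was at 7.47, 8.06 and 6.32 in KO and at 6.61, 6.70 and 6.73 in WT mice, a log2 fold change of 1.09 on slide 1. Cldn7, a tight junction claudin of epithelia, differed in being higher in all KO arrays, at 6.52, 6.38 and 5.55 in KO against 5.22, 5.18 and 5.13 in WT mice, with a log2 fold change of 0.97 with 6 arrays and 1.27 on slide 1. Lcn2, lipocalin 2, was high in KO 2 alone, at 6.63, 11.02 and 6.51 in KO against 6.44, 6.89 and 6.07 in WT mice.

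**Figure D3:**
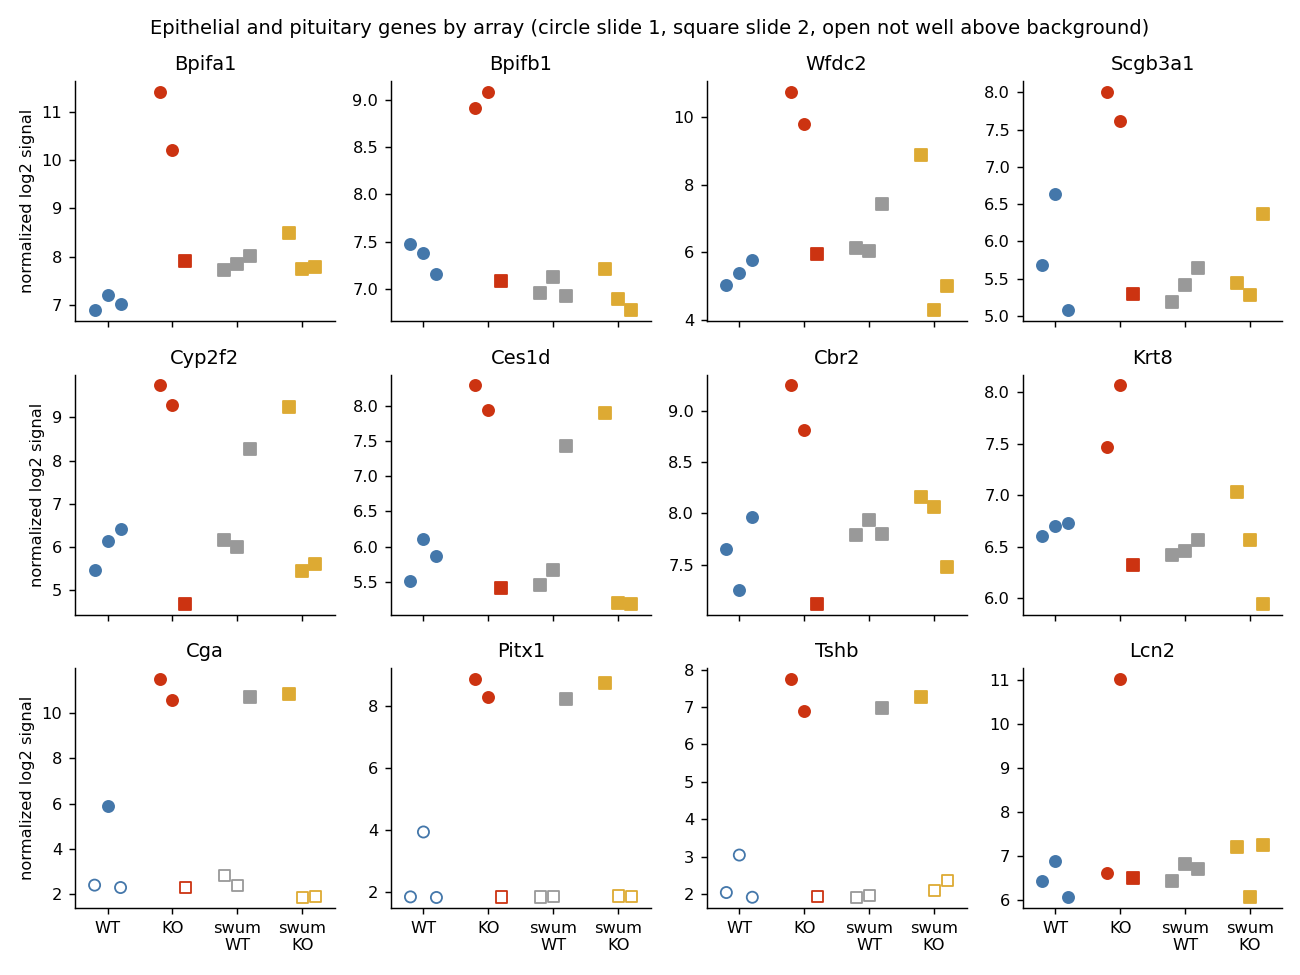
Log2 signal of 9 secretory and epithelial genes and of Cga, Pitx1 and Tshb on each of the 12 arrays, with WT, KO, swum WT and swum KO mice side by side and open symbols where a spot was not well above background. KO 1 and KO 2 stand above all WT arrays for every gene but Lcn2, in which KO 2 alone does, and 1 array of each swum group is also high for Cga, Pitx1, Tshb, Cyp2f2, Ces1d and Wfdc2.

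As a group, 34 genes of secretory epithelium were collected after these values had been seen, and their count is a description with no support of its own. Of the 22 tested, 5 were higher and 0 lower in KO mice at an unadjusted p under 0.05 with 6 arrays, where 2.29% of all genes were higher and 2.18% lower. On slide 1, 15 were higher and 0 lower, where 3.06% and 2.02% of all genes were. The median log2 fold change was 0.62 with 6 arrays and 1.05 on slide 1, and over all tested probes it was -0.01 and -0.00. The secretoglobin Scgb3a2, the transcription factors Spdef and Foxa1, the milk protein Ltf, the water channel Aqp5 and the immunoglobulin receptor Pigr did not meet the criterion in either fit. The club cell protein Scgb1a1, the mucins Muc5ac, Muc5b and Muc1 and the epithelial adhesion protein Epcam did not pass the detection filter. Epcam was at 5.31, 5.28 and 2.37 in KO and at 1.84, 1.81 and 1.82 in WT mice, and on slide 1 KO mice exceeded WT mice at least 2.05-fold.

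The pituitary signal of KO 1 and KO 2 moved with some of these genes. In the array of each swum group with a high Cga signal, Cyp2f2 was at 8.28 and 9.24, Ces1d at 7.43 and 7.89 and Wfdc2 at 7.43 and 8.87, while the highest of the other swum arrays was at 6.17 for Cyp2f2, 5.66 for Ces1d and 6.13 for Wfdc2. Scgb3a1 was at 5.64 and 5.44 in the same arrays, within the range of the other swum arrays. Bpifa1 and the upper Bpifb1 probe reached 8.49 and 7.21 at most in the swum mice, below KO 1 and KO 2. A fit with the Cga signal as a covariate was an alternative chosen after the data had been seen. On slide 1, with KO 3 left out and the swum arrays kept, its log2 fold changes were 0.35 for Ces1d, 1.05 for Cyp2f2 and 2.55 for Wfdc2. They were 1.82 for Scgb3a1, 1.54 for the upper Bpifb1 probe and 3.31 for Bpifa1. The lowest adjusted p of any probe in limma was 0.467 in this slide 1 fit. With 6 arrays the covariate fit gave 0.12 for Ces1d, 0.06 for Cyp2f2 and 1.74 for Wfdc2. It gave 0.67 for Scgb3a1, against 1.18 without the covariate, 0.64 for the upper Bpifb1 probe and 2.12 for Bpifa1. That Bpifb1 probe missed the criterion there, so the values of Scgb3a1 and Bpifb1 depended on the fit. On slide 1 the 2 KO arrays are also the 2 with a high Cga signal, and the part of the pituitary signal in these differences was not tested otherwise.

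Among the dimmer genes, 5 up-regulated and 3 down-regulated probes with a gene symbol met the criterion in both fits, were well above background on at least 1 array of each group and had no overlap between groups. Bpifa1 and Wfdc2 are described above, and the other 3 up-regulated genes were Chek1, Tns4 and Teddm2. Chek1, the kinase that halts the cell cycle when DNA replication is blocked, was at 4.99, 5.27 and 4.59 in KO and at 4.15, 3.59 and 3.84 in WT mice. The log2 difference on slide 1 was 1.27 ± 0.23 (standard error, adjusted p = 0.463 in limma). Tns4, a tensin of focal adhesions, was at 5.95, 5.60 and 5.59 in KO and at 4.46, 5.16 and 4.39 in WT mice, a log2 fold change of 1.04 with 6 arrays and 1.1 on slide 1. Teddm2, a member of the transmembrane epididymal protein family, was at 6.86, 6.29 and 5.96 in KO and at 4.62, 5.26 and 5.61 in WT mice, a log2 fold change of 1.41 on slide 1. On these 3 probes every KO array was above every WT array, and KO 3 was the lowest KO array, alone or nearly level with KO 2. Tns4 and Teddm2 each have another tested probe, and on these the groups overlapped over the 6 arrays. The one of Teddm2, the brighter of its pair on average, was at 6.10, 6.32 and 6.89 in KO and at 6.11, 6.33 and 5.62 in WT mice, with log2 fold changes of 0.42 with 6 arrays and 0.20 on slide 1, and the one of Tns4 had 0.39 and 0.56, without overlap on slide 1. With normexp background correction none of the 3 met the criterion, at log2 fold changes of 0.40 for Chek1, 0.43 for Tns4 and 0.57 for Teddm2 on slide 1. On slide 1 Tns4 also missed it without KO 1 or WT 3, at 0.93 and 0.96, and narrowly without WT 1, and with the Cga covariate at 0.83, and with 6 arrays Chek1 missed it without KO 2 or WT 2 and Teddm2 without KO 1 or WT 1.

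Of the 35229 tested probes, 9 were well above background on all KO arrays and on no WT array. Detection on all arrays of 1 group was enough for the filter, so the KO group by itself could admit these 9 probes. Their count and bounds are therefore a description and no support for a change. Of those with a symbol, the one with the highest bound was Tspan1, a tetraspanin of epithelial cells, at 5.93, 5.39 and 4.51 in KO and at 3.31, 3.31 and 3.42 in WT mice, or at least 2.03-fold higher in KO mice. It was followed by the predicted gene Gm39102 with at least 1.5-fold, and by single probes of Mpp1, a membrane scaffold protein of the erythrocyte skeleton, and of Ptprm, a receptor tyrosine phosphatase, each with at least 1.46-fold. These bounds are on group means and take no account of the spread. Gm39102 and Ptprm missed the criterion in both fits and this Mpp1 probe missed it on slide 1. Tspan1 met it in both fits, but with normexp it missed it in both, at log2 fold changes of 0.48 and 0.59. With the Cga covariate Tspan1 missed it on slide 1, at 1.06 against 2.31 without the covariate. For Gm39102 the log2 fold change was 0.66 with 6 arrays (standard error 0.65), and the swum mice spanned 4.13 to 7.19. For Mpp1 and Ptprm the gene's other probes did not follow. The 3 other Mpp1 probes had log2 fold changes between -0.85 and -0.00 with 6 arrays, and the brightest of them was at 12.02 in KO 1.

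Eps8l1 and Plcb2 were lower in KO mice, each on 1 probe. Eps8l1 encodes a relative of Eps8, an adaptor that links growth factor receptors to Rac and the actin skeleton. It was at 3.72, 4.08 and 4.19 in KO and at 5.40, 6.41 and 5.93 in WT mice. All KO arrays lay below all WT arrays, and only 1 of the 3 KO arrays, KO 3, was well above background. The log2 fold change was -1.92 with 6 arrays (standard error 0.31, adjusted p = 0.726 in limma) and on slide 1, where neither KO array was well above background, Eps8l1 was at least 3.06-fold lower in KO mice (adjusted p = 0.462). No single array, when left out, ended the call, but with normexp the log2 fold change was -0.65 with 6 arrays, and the criterion was missed in both fits. The swum mice were at 5.10 to 6.48, close to the WT range. The gene has 1 probe here, at chr7:4430514-4430573 of mm9, plus strand.
Eps8l1 probe, bases 1 to 30 of 60: aacagaagtcatttgatcccggctcgatca

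Plcb2 encodes a phospholipase C of the beta class, which is switched on by G proteins to make inositol trisphosphate and is known for its role in taste cells and blood cells. One of its probes, at chr2:118542766-118542825 of mm9, minus strand, was at 1.87, 2.85 and 1.85 in KO and at 4.05, 5.96 and 5.62 in WT mice. Groups did not overlap, and because no KO array was well above background the difference has only a bound, at least 1.94-fold lower in KO mice. On the same probe the swum mice of both genotypes were at 1.86 to 3.73, also below all WT arrays, so a low signal was also seen in swum wild-type mice. All swum arrays were on slide 2 and all WT arrays on slide 1, so swimming and slide cannot be told apart there. A pair of further Plcb2 probes in the same gene, at chr2:118540171-118540230 and chr2:118534571-118534630, had log2 fold changes of 0.39 and -0.08 with 6 arrays and 0.05 and -0.07 on slide 1. The fall was therefore seen on 1 of 3 probes, which share no run of more than 6 bases. With normexp that probe missed the criterion in both fits. The 3 are printed to show that they read different stretches of the transcript, in the order in which they are named.
Plcb2 probe that fell: aaatgtccagccttgtcaattatatccagc
Plcb2 second probe: agcaagttgccttggaaactgcctcctcct
Plcb2 last probe: ggattagagactatcaagggcaagggtcct

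Catsperg2 and Wnt8b were the other 2 down-regulated genes that met the rule. Catsperg2, a subunit of the sperm calcium channel, was at 4.21, 4.50 and 2.96 in KO and at 4.95, 6.65 and 4.98 in WT mice, with log2 fold changes of -1.64 and -1.17. Wnt8b, a secreted Wnt ligand expressed in the developing forebrain, was at 4.78, 4.22 and 4.78 in KO and at 5.12, 5.31 and 6.64 in WT mice, with log2 fold changes of -1.10 and -1.19. In both, the groups did not overlap, but the lowest WT array was close to the highest KO array. Both missed the criterion with normexp. On slide 1 Catsperg2 also missed it without KO 1, KO 2 or WT 2, at -1.02, -1.32 and -0.61. Wnt8b missed it on slide 1 without KO 2 or WT 3, at -0.91 and -0.72. With the Cga covariate on slide 1 Catsperg2 missed it at -1.14 and Wnt8b at -0.98. The swum mice, on slide 2, were at 3.53 to 4.39 for Catsperg2, below all WT arrays, and at 4.08 to 5.27 for Wnt8b. As the WT arrays were on slide 1, swimming and slide cannot be told apart in this. Of the 35229 tested probes, 21 were well above background on all WT arrays and on no KO array. The WT group by itself was enough to pass these 21 through the filter, so their count and bounds are likewise a description. The highest bounds with a symbol, after Plcb2, were those of a dim probe of Abat with at least 1.92-fold, of Cacna1b with at least 1.78-fold and of the transcript 9330158H04Rik with at least 1.54-fold lower in KO mice. Abat degrades GABA and Cacna1b is the N-type calcium channel, both well known in neurons. Of the 3 brighter Abat probes 1 was also lower in KO mice without overlap, at 6.08, 6.26 and 5.73 in KO and at 6.65, 6.35 and 6.37 in WT mice, with log2 fold changes of -0.43 with 6 arrays and -0.29 on slide 1. The brightest Abat probe, at 15.41, 15.45 and 15.61 in KO and at 15.41, 15.47 and 15.49 in WT mice, had a log2 fold change of 0.03, and the brightest Cacna1b probe had -0.12. The brighter probe of 9330158H04Rik had 0.14 with 6 arrays and 0.13 on slide 1, with overlap. Sytl2, a Rab27 effector of vesicle transport, was at least 1.44-fold lower in KO mice on a dim probe, while its brighter probe was at 9.74, 9.50 and 9.66 in KO and at 9.87, 9.87 and 9.86 in WT mice, a log2 fold change of -0.24.

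**Figure D4:**
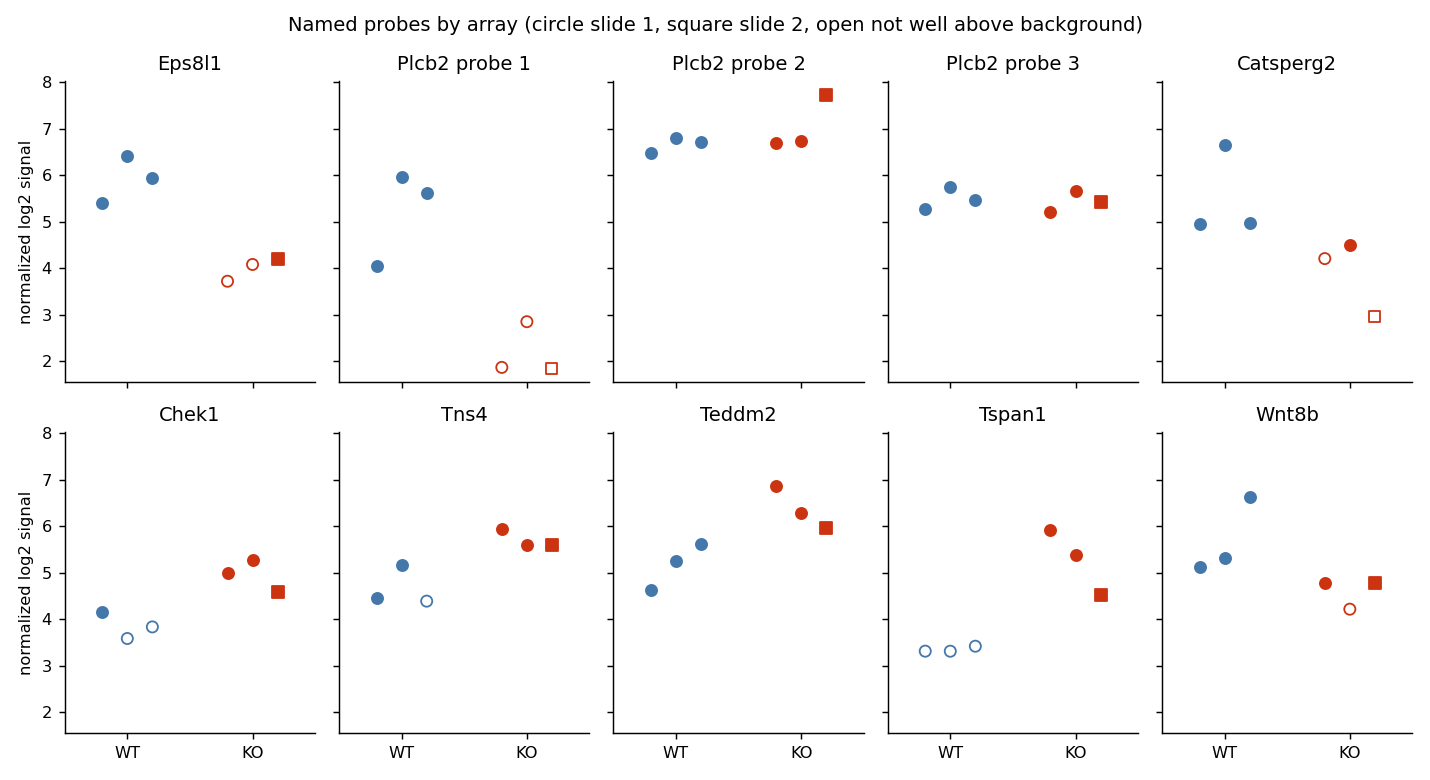
Log2 signal of the named probes on each KO and WT array, with open symbols where a spot was not well above background. The groups do not overlap for any gene shown except on probes 2 and 3 of Plcb2.

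The 40 probes that met the criterion with 6 arrays alone are by definition those that lost it without KO 3. KO 3 was the most extreme KO array for 35 of them and the highest for 31, and the median log2 fold change of the 34 up-regulated ones was 1.24 with 6 arrays and 0.81 on slide 1. For some, such as the Mpp1 probe above, the fold change was as large on slide 1. None of the 79 probes changed sign on slide 1. KO 3 alone against WT, an alternative chosen after the data had been seen, gave 1390 probes at the criterion, 1206 of them higher. This arm is 1 array, assumed to vary like the other groups, and it lies on another slide than all WT arrays, so that genotype and slide cannot be told apart in it. The fitted difference of KO 3 alone had the same sign as on slide 1 for 54 of the 89 slide 1 probes.

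Genes that answer glucocorticoids were another group collected after the values had been seen. Of 22 tested, 1 was higher at an unadjusted p under 0.05 with 6 arrays and 10 were on slide 1, where 2.29% and 3.06% of all genes were, with 0 lower in either, and the median log2 fold change was 0.28 and 0.40. Sgk1, a kinase that regulates ion channels, was at 13.19, 13.95 and 12.54 in KO and at 12.65, 12.55 and 12.13 in WT mice, a log2 fold change of 0.78 with 6 arrays and 1.12 on slide 1 (adjusted p = 0.841 in limma). Cdkn1a, the cell cycle inhibitor p21, was at 9.39, 10.24 and 9.23 in KO and at 9.08, 9.18 and 8.97 in WT mice. Zbtb16, a transcription factor, was at 10.29, 11.91 and 10.56 in KO and at 9.88, 10.42 and 10.28 in WT mice. For Sgk1, Cdkn1a and Zbtb16 KO 2 was the highest array, and of these Sgk1 and Cdkn1a passed on slide 1. The 10 that passed there also included Lcn2 of the epithelial list. Crh, the releasing hormone at the top of the stress axis, was at 9.28, 10.72 and 10.27 in KO and at 10.26, 10.53 and 11.26 in WT mice, and the groups overlapped.

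In the p53 pathway, 46 genes were tested, and 5 were higher and 0 lower in KO mice with 6 arrays, and 6 and 0 on slide 1. The shares over all genes, for this and the pathways that follow, were 2.29% higher and 2.18% lower with 6 arrays and 3.06% and 2.02% on slide 1. Chek1, Trp53inp1, Pidd1 and Fas were higher in both fits, Steap3 with 6 arrays and Igfbp3 and Cdkn1a on slide 1, and of these 7 genes Chek1 alone met the criterion. Pidd1, a scaffold for caspase activation after DNA damage, was at 6.74, 6.85 and 6.69 in KO and at 6.56, 6.52 and 6.37 in WT mice, with log2 fold changes of 0.27 and 0.31 (adjusted p = 0.849 and 0.841 in limma). The groups did not overlap on this probe. On the other 2 Pidd1 probes they did, with log2 fold changes of 0.11 and -0.06 with 6 arrays and -0.18 and 0.19 on slide 1. The median over the pathway was 0.05 and 0.04. In the long-term depression pathway, 52 genes were tested. With 6 arrays 1 was higher, the phospholipase Plcb4 at a log2 fold change of 0.24, and 1 lower, and on slide 1 0 were higher and 1 lower. The lower gene in both was the kinase Braf, at 12.60, 12.47 and 12.48 in KO and 12.72, 12.64 and 12.68 in WT mice. In the estrogen signaling pathway, 70 genes were tested, with 3 higher and 0 lower with 6 arrays and 4 and 0 on slide 1, against 2.29% and 3.06% of all genes that were higher. With 6 arrays these were the keratin Krt18, Plcb4 and the transcription factor Creb1. On slide 1 they were Krt18 and Krt19, keratins that also belong to the epithelial list, Mmp9, a matrix protease, and Pgr, the progesterone receptor. Of 26 genes of phospholipase C and inositol trisphosphate signaling, 1 was higher and 1 lower with 6 arrays, Plcb4 and Plcd1, and 0 passed on slide 1. Of 35 bitter taste receptors, whose signal runs through Plcb2 in taste cells, 2 were tested and 0 passed in either fit. Itpr2, an inositol trisphosphate receptor, had log2 fold changes of -0.01 with 6 arrays and -0.04 on slide 1 on its brightest probe. A dimmer Itpr2 probe was at 5.84, 5.39 and 4.64 in KO and at 4.97, 5.01 and 5.10 in WT mice. It had 0.26 with 6 arrays and 0.59 on slide 1 (adjusted p = 0.788 in limma), while further Itpr2 probes had 0.006 and 0.05 on slide 1. Mdm4, an inhibitor of p53, had 0.00 and -0.08 on its brightest probe. Bdnf, a growth factor of neurons, was at 9.50, 9.32 and 9.46 in KO and at 9.17, 9.40 and 9.08 in WT mice, and the groups overlapped. Hspa1b, a heat shock protein, was at 9.82, 9.99 and 9.33 in KO and at 9.12, 9.18 and 9.16 in WT mice, without overlap. Its log2 fold change was 0.56 with 6 arrays and 0.75 on slide 1 (adjusted p = 0.849 and 0.908 in limma). All 4 Cask probes were lower in KO mice, the brightest at a log2 fold change of -0.10 with 6 arrays and -0.05 on slide 1. Sos1 and Abi1 had 0.005 and 0.09 on their brightest probes with 6 arrays, and Gna11 had 0.03. On slide 1 these were 0.05, -0.009 and -0.03.

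For the feeding circuit, 19 genes were tested, and 1 was higher with 6 arrays and 3 on slide 1, against 2.29% and 3.06% of all genes, with 0 lower. Agrp, the peptide of hunger neurons in the arcuate nucleus, was at 12.25, 12.08 and 11.70 in KO and at 11.77, 11.53 and 11.40 in WT mice, a log2 fold change of 0.44 with 6 arrays and 0.60 on slide 1 (adjusted p = 0.867 in limma). Npy, made by the same neurons, was at 11.39, 11.11 and 10.86 in KO and at 11.14, 10.74 and 10.81 in WT mice, a log2 fold change of 0.36 on slide 1. KO 1 was the highest array for both genes, and KO 3 lay within the WT range. Mchr1, the receptor for melanin-concentrating hormone, had log2 fold changes of 0.44 and 0.41. Dio2, which makes active thyroid hormone in tanycytes and glia, was at 10.46, 10.41 and 10.04 in KO and at 9.95, 10.01 and 9.89 in WT mice. All KO arrays were above all WT arrays, and its log2 fold change was 0.35 with 6 arrays and 0.48 on slide 1 (adjusted p = 0.463 in limma).

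Of 18 core clock genes, 0 were higher and 1, Bhlhe41, lower with 6 arrays, and 0 on slide 1. Per3, a period gene, was measured on 3 probes, and all were lower in KO mice. The brightest was at 8.82, 8.75 and 8.65 in KO and at 9.01, 8.94 and 8.83 in WT mice, a log2 fold change of -0.19, and KO 1 was just below the lowest WT array. The dimmest Per3 probe, singled out after its values were seen, was at 4.81, 4.68 and 4.76 in KO and at 5.52, 5.38 and 5.39 in WT mice. Here the groups were well apart, with a log2 fold change of -0.68 in both fits (standard error 0.10 and 0.11, adjusted p = 0.726 and 0.462 in limma). Time of day at collection was not given in the labels. Of 14 serotonin genes, 2 were higher with 6 arrays and on slide 1, the receptors Htr4 and Htr2a with log2 fold changes of 0.20 and 0.16, and Htr6 was the 1 gene that was lower on slide 1, at -0.46.

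Of 13 clock output genes, 0 passed with 6 arrays, while on slide 1 4 were higher and 0 lower, namely Fmo2, Pdk4, Cdkn1a and Rasd1, with a median log2 fold change of 0.14 over the list. Cdkn1a, Pdk4 and Rasd1 are also in the glucocorticoid list and Fmo2 in the epithelial list. Of 16 heat shock proteins, 0 passed with 6 arrays and 3 were higher on slide 1, Dnajb1, Hspb1 and Hspd1 at 0.40, 0.46 and 0.12. Over all genes 3.06% were higher and 2.02% lower on slide 1, and 2.29% and 2.18% with 6 arrays, and the counts that follow stand against the same shares. Immediate-early genes, which mark recent activity of neurons, had 2 of 24 higher and 0 lower in each fit. In both fits this held for Dusp6, a MAP kinase phosphatase, with log2 fold changes of 0.22 and 0.24. Of 15 endothelial and mural markers, 2 were lower in each fit, Cldn5, the tight junction claudin of the blood-brain barrier, at -0.30 and -0.35, and Slco1a4, a transporter of the same barrier, at -0.28 and -0.26. Choroid plexus markers had 1 of 13 higher, Folr1, a folate receptor, at 0.62 and 0.81, while Ttr overlapped between groups. Potassium channels had 4 of 79 higher and 0 lower with 6 arrays and 5 and 1 on slide 1, and the ones higher in both were Kcnk4 and Kcna5. The 20 oligodendrocyte markers had 0 in either direction in both fits, with median log2 fold changes of -0.11 and -0.12. Oxidative phosphorylation, with 83 genes, had 0 in either direction with 6 arrays and 1 lower on slide 1, the ATP synthase subunit Atp5b at -0.15. Cytosolic ribosomal proteins, with 82 genes, had 0 with 6 arrays and 1 higher on slide 1, Rps18 at 0.14. GABA and glycine genes, with 28, had 0 with 6 arrays and 0 on slide 1.

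**Figure D5:**
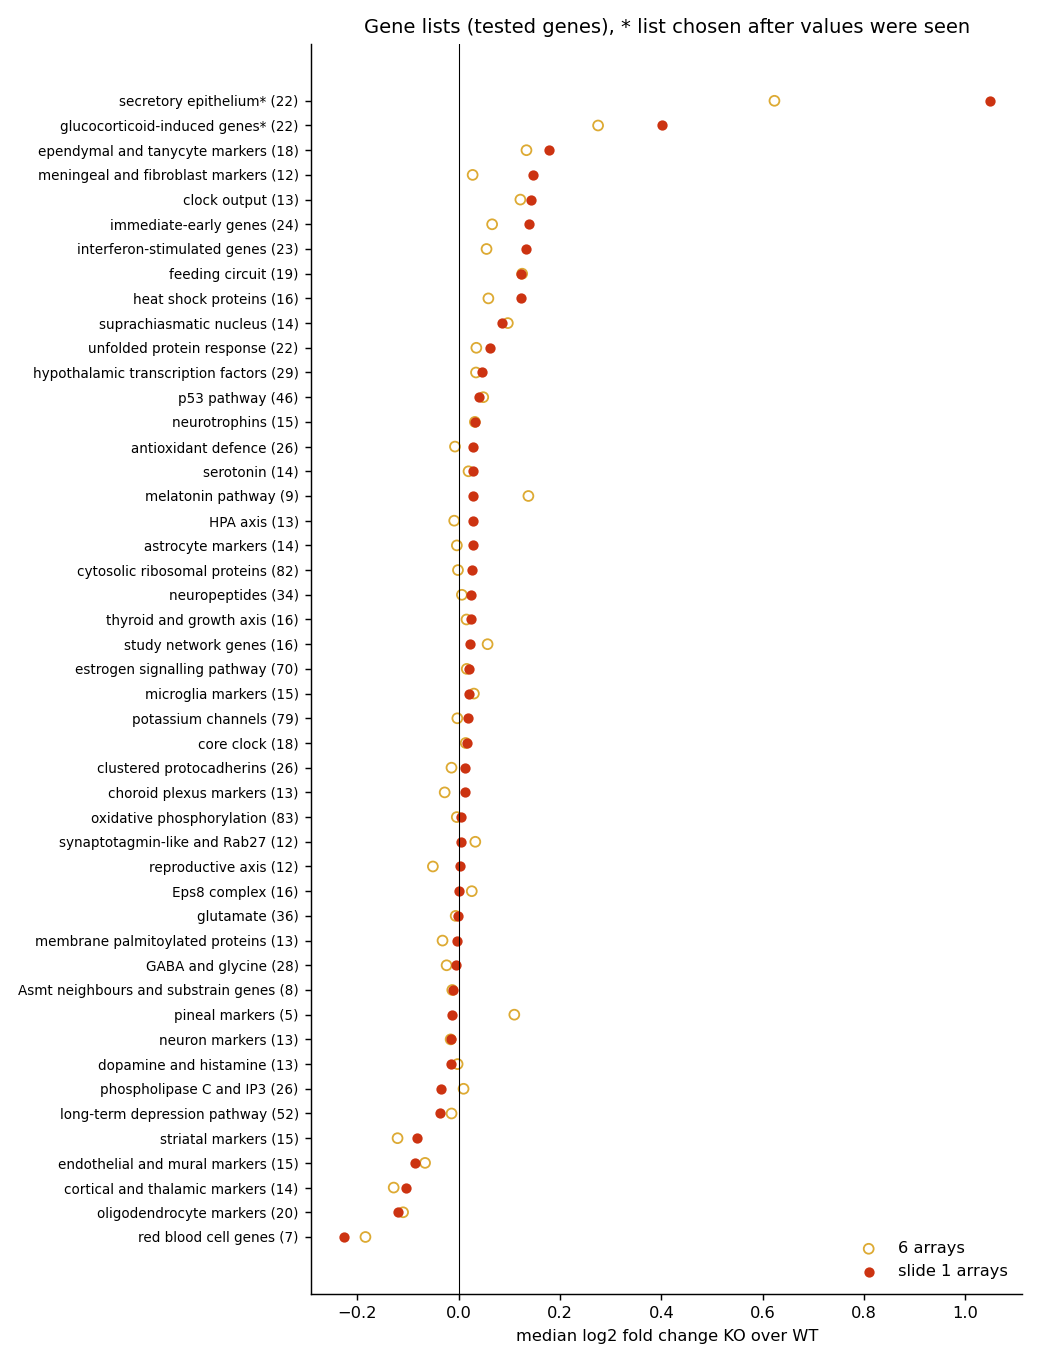
Median log2 fold change of KO against WT of each gene list with at least 5 tested genes, the number tested in parentheses, with all 6 arrays (open) and with slide 1 alone (filled). The secretory epithelium list stands at 0.62 and 1.05 and the glucocorticoid list at 0.28 and 0.40, both collected after values were seen.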

How the data were processed

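RNA of the hypothalamus was labelled with Cy3 and hybridized to single-color Agilent mouse arrays, 3 in each of the 4 groups. The authors deposited the scanner output, in which the processed signal is an intensity per spot after background subtraction by Agilent Feature Extraction 10.7.1.1, as the labels state. A table of log2 values was deposited beside it, which the authors had quantile-normalized over the 12 arrays in GeneSpring, with detection flags per array, and this table gave all values above. Their tables of comparisons (fold changes and p-values) were not used. No spot was saturated on any array (0), and the number of arrays limits the precision. Scanner headers gave the slide of each array. Probe positions follow the annotation in the scanner files, build mm9, and printed sequences are from the scanner output.

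Tests covered the 35229 of 56605 probes that had a detection flag on the 3 arrays of any of the 4 groups, the reading taken here of the filter in the methods, and these carried 18266 gene symbols. The 4 group means were fitted over the 12 arrays with limma 3.58.1 in R 4.3.3 (lmFit and eBayes), and the second fit left out KO 3. The fold and p thresholds of the study's criterion were applied to limma's values in place of the methods' t-test. P-values were adjusted by Benjamini-Hochberg over all tested probes. Probes below detection in a whole group have a bound in place of a fold: the signal there was raised, array by array, to the lowest signal among detected probes wherever it was below that. Gene lists took the brightest probe of a gene and were counted at an unadjusted p under 0.05, with no set test. The fit was checked on simulated data with the spread of each probe kept. With 6 arrays, 97 of 100 probes given a log2 change of 2 met the criterion, and 43 of 100 given a change of 1. On slide 1 these were 96 and 48. Unchanged probes also met it, 63 with 6 arrays and 88 on slide 1, beside the 79 and 89 probes found in the data.

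Named were Asmt and the study's network genes, probes past the adjusted p, the largest changes that met the criterion in both fits without overlap and with detection in each group, up to 4 members of each list, and probes detected in 1 group only. The members and lists were chosen with earlier results of these data known. The lists of secretory epithelium and glucocorticoid-induced genes, the fit with Cga as a covariate and the fit with KO 3 alone were added after the data had been seen. The alternatives were the processed signal scaled by the 75th percentile or quantile-normalized anew, normexp background correction with an offset of 50, other detection filters, the methods' t-test, other fits, blocks by slide or replicate number, averaging per gene, and leaving out each array in turn. Plots and tables used matplotlib 3.10.9, pandas 2.3.3, numpy 2.4.6 and Python 3.11.15.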

Additional observations from a re-analysis of the deposited data

How the results depend on the processing

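The number of probes at the criterion moved with most settings, while no named probe past the criterion changed sign under the other scalings, normexp, the Cga covariate or the loss of a single array. With 6 arrays, the 79 probes became 2 with normexp background correction, 487 without a detection filter, 9 with a filter on all 12 arrays, 40 with a filter on the KO or WT arrays, 24 with the methods' t-test, 51 with the KO and WT arrays alone in the fit, 155 with array weights, 32 with probes averaged per gene, 215 with the Cga covariate and 1390 with KO 3 alone, and without single arrays they ranged from 78 to 207. The 2 of normexp were both higher in KO mice. The 0 probes at an adjusted p under 0.05 in limma became 3 with the slide as a block, which is the fit on slide 1, and 4286 with KO 3 alone, a lone array on the other slide, and ranged from 0 to 3 without single arrays (1 without KO 2, 3 without KO 3). On slide 1, the 89 probes became 12 with normexp (all higher in KO mice), 620 without a filter, 21 and 53 with the other filters, 41 with the methods' t-test and 37 with probes averaged per gene, and ranged from 110 to 217 without single arrays. The 3 probes at an adjusted p under 0.05 became 25 without a filter and 0 with quantile normalization over the 5 arrays, the methods' t-test, KO and WT alone in the fit, the replicate block and the Cga covariate, and ranged from 0 to 23 without single arrays, with 0 without any 1 WT array, 23 without KO 1 and 11 without KO 2. Of the named probes, 14 lost the criterion with normexp with 6 arrays and 12 on slide 1, which is most of those that had met it. With 6 arrays only Bpifa1 and Wfdc2 kept it, and on slide 1 only these and the pair of Bpifb1 probes did. The cause was not tested, except that filters change the number of probes tested. The replicate numbers did not pair the arrays, since same-numbered KO and WT arrays had correlations of their deviations of 0.24, -0.19 and 0.03, and with the replicate block 73 and 89 probes met the criterion. Probes near background carried most calls, and only a few of the probes past the criterion were well above background on all 6 arrays.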
